A study of Mus musculus with 8 samples.

Results

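MicroRNA-126a (miR-126a) is a short regulatory RNA cut from a hairpin within the mouse gene Egfl7, and both of its mature strands, listed as mmu-miR-126a-3p and mmu-miR-126a-5p, are described here in bone marrow LSK cells. They were taken by name from a table of 190 mature miRNAs, so the members are 2 of 190. They were chosen by their counts in the genotype comparison, in which both stood higher in db/db, so that difference is given as a description without a test. LSK cells lack lineage markers and carry Sca1 and cKit, a gate that takes in haematopoietic stem cells together with multipotent progenitors. The db/db group comprised 4 libraries from B6.BKS(D)-Leprdb/J mice, homozygous at the leptin receptor gene Lepr for the db mutation, which leads to obesity and type 2 diabetes. The db/m group comprised 4 libraries from B6.BKS(D)-Leprdb/+ mice, which carry the mutation on only 1 copy of the gene. The labels place all 8 at 6 months after the onset of diabetes, db/m included, and name no further agent or allele. The mutation is carried in the germ line, so it is not limited to blood cells. All 8 titles say db/m, as does the deposited project sheet for all 8 samples, and the groups were therefore taken from the genotype label, with which the strain label agrees.

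A hairpin such as that of miR-126a is cut into a short duplex, and the strand that is loaded into an Argonaute protein guides it to messenger RNAs that pair with bases 2 to 8 of the strand, the seed. miR-126 is known from endothelium, where Egfl7, a secreted vessel factor, is also made and where the 3p strand supports vascular endothelial growth factor signalling by lowering Spred1 and Pik3r2. In mouse endothelium the 5p strand is known to lower Dlk1, an inhibitor of Notch signalling. In haematopoietic stem cells, studied in mouse and human, miR-126 is known to dampen PI3K-AKT signalling and to restrain entry into the cell cycle.

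The 3p strand and the hairpin are shown because the seed sets which messages the strand can pair with, and because both strands come from this 1 precursor. The sequences are from RefSeq on GRCm38.p6, the mouse assembly also called mm10, written 5′ to 3′. Capitals mark the seed in the mature strand and the 3p strand in the hairpin.
miR-126a-3p: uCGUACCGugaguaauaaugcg
Mir126a hairpin: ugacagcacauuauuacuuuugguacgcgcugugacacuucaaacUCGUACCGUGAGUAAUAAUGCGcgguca

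The hairpin lies on the plus strand of chromosome 2 from 26591357 to 26591429, and the 3p strand takes bases 46 to 67 of its 73, at 26591402 to 26591423. In the GENCODE M21 annotation of the same assembly, the hairpin lies on the strand of Egfl7 (26580014 to 26593120). Of 19 annotated Egfl7 transcripts, 8 have it within an intron, of which 7 are protein-coding and 1 is marked for nonsense-mediated decay. In 1 retained-intron transcript it lies within exon 4, and the remaining 10 do not reach it. It also lies in an intron of Gm20532, an overlapping gene on the same strand. Mir126b is annotated on the opposite strand from 26591363 to 26591420, and the table lists no miR-126b. RNAfold predicted 27 base pairs in the hairpin at -31.2 kcal/mol, with 19 of the 22 bases of the 3p strand paired, among them all 7 bases of the seed.

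The 3p sequence was not close to any other miRNA of the table for which RefSeq holds a mature sequence. Of the 190 names 163 were found there, and each of the 162 sequences compared needed at least 9 single-base edits to become miR-126a-3p. No other miRNA of the table shared its seed, nor did any of 1678 other mouse mature sequences in RefSeq.

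The libraries held 36145 to 54228 counts in db/db and 13273 to 77834 in db/m. After a filter on low counts 144 miRNAs were tested, both strands among them. At these depths 3 counts were worth between 55.3 and 83.0 CPM (counts put on a common scale of library size) in db/db and between 38.5 and 226 CPM in db/m, far below either strand. RNA integrity numbers ran from 9.8 to 10 in db/db and from 9.5 to 10 in db/m. The table holds miRNAs only, so Lepr and the sorting markers could not be checked in it. No label says that the libraries came from separate animals, so every p-value here covers only the spread between these samples, which may be technical.

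miR-126a-3p, the more abundant strand, was counted 1482, 1245, 522 and 1480 times in db/db replicates 1 to 4, against 385, 134, 750 and 351 times in db/m replicates 1 to 4. Scaled for library size and composition by the TMM method, these were 25820, 24190, 14100 and 32680 CPM in db/db, against 10200, 10240, 10080 and 6724 CPM in db/m. All 4 db/db libraries lay above all 4 db/m libraries, with db/db replicate 3 nearest to them. The 3p strand averaged 24200 ± 7669 CPM in db/db and 9312 ± 1727 CPM in db/m (SD, n = 4 each), a log2 fold change of 1.38 (SE 0.25), or 2.61-fold. The lowest db/db library stood 1.38-fold above the highest db/m library, and the second lowest db/db library 2.36-fold above it.

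miR-126a-5p was counted 399, 302, 131 and 377 times in db/db replicates 1 to 4, against 100, 32, 126 and 79 times in db/m replicates 1 to 4. These were 6953, 5869, 3539 and 8324 CPM in db/db, against 2650, 2445, 1694 and 1513 CPM in db/m. Again the genotypes did not overlap, and db/db replicate 3 was the lowest of its group. The 5p strand averaged 6171 ± 2022 CPM in db/db and 2076 ± 556 CPM in db/m (SD, n = 4 each), a log2 fold change of 1.60 (SE 0.28), or 3.03-fold. The lowest db/db library stood 1.34-fold above the highest db/m library. The authors' deposited table gave log2 fold changes of 1.31 for the 3p strand and 1.52 for the 5p strand.

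**Figure D1:**
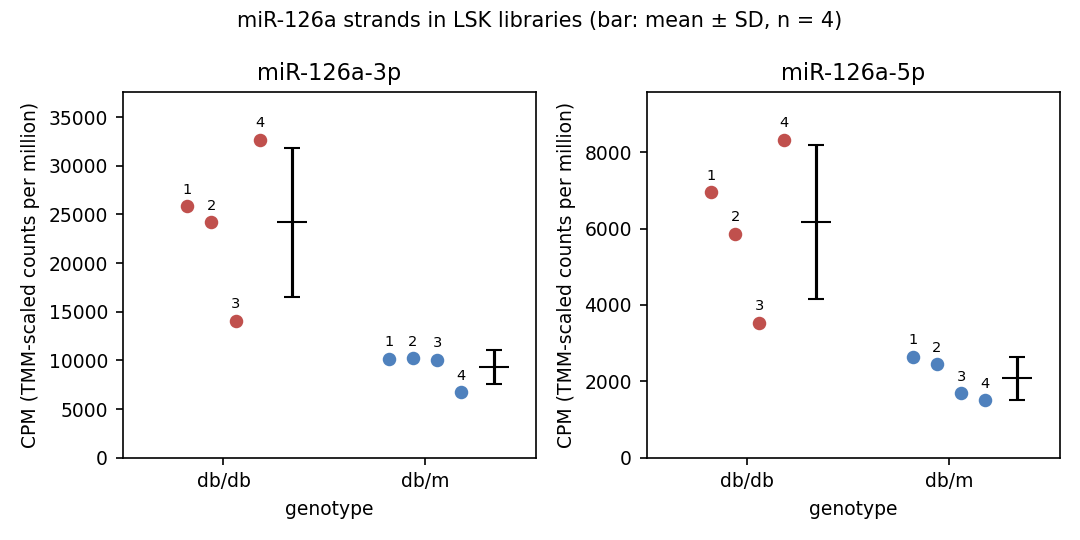
TMM-scaled CPM of miR-126a-3p (left) and miR-126a-5p (right) in each library, db/db at the left of each panel and db/m at the right, numbered by replicate, with the mean ± SD of 4 libraries beside the points. The db/db points sit above all db/m points in both panels, and replicate 3 is the lowest db/db library at 14100 and 3539 CPM.

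Both strands belonged to the 12 of 144 tested miRNAs (8.33%) whose 4 db/db libraries all lay above the 4 db/m libraries, while 13 (9.03%) had them all below. Among the 144 log2 fold changes, those of the 5p and 3p strands ranked 1 and 2, the ranks for which they were chosen. By mean CPM over the 8 libraries the 3p strand ranked 13 of 144 and the 5p strand 36. Within single libraries the 3p strand ranked 9 to 17 of 190 by count in db/db and 20 to 28 in db/m. The 5p strand ranked 26 to 37 in db/db and 46 to 59 in db/m.

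**Figure D2:**
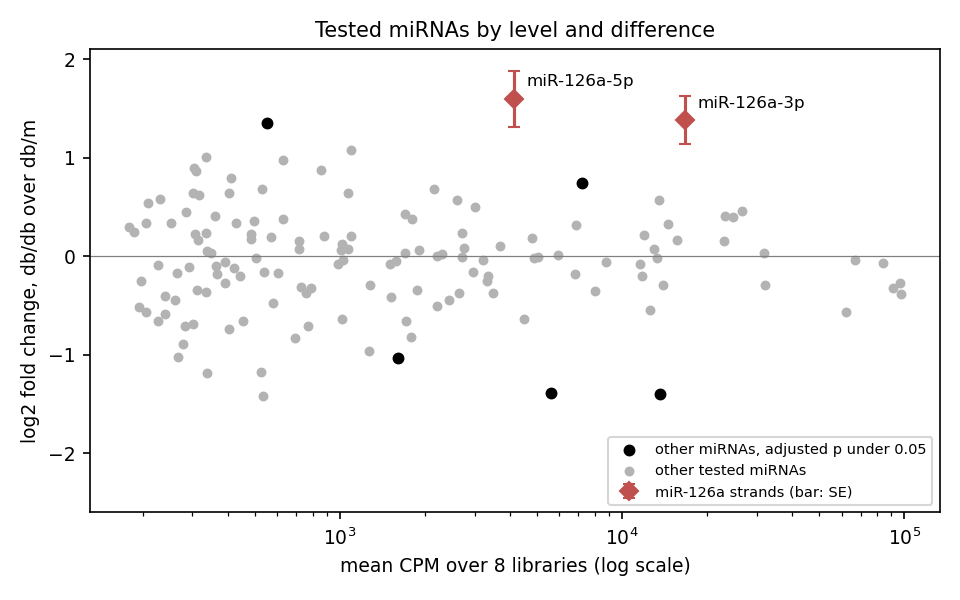
Log2 fold change of db/db over db/m (y axis) against mean CPM over 8 libraries (x axis, log scale) for the 144 tested miRNAs. Diamonds with SE bars are the miR-126a strands at 1.60 and 1.38, black points are other miRNAs past an adjusted p of 0.05, and grey points are the rest.

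Together the strands took 3.47%, 3.09%, 1.81% and 4.14% of all miRNA counts in db/db replicates 1 to 4, against 1.20%, 1.25%, 1.13% and 0.787% in db/m replicates 1 to 4. The mean shares were 3.13% ± 0.981 in db/db and 1.09% ± 0.208 in db/m (SD, n = 4 each). These are shares of the counted miRNAs and say nothing of miRNA per cell. In bulk libraries like these, fewer cells of a type and less RNA per cell cannot be told apart.

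Replicates of a genotype differed by more than counting noise over all tested miRNAs in every pair, with a chi-square per degree of freedom of at least 5.34. For the 3p strand the coefficient of variation between libraries was 31.7% in db/db and 18.5% in db/m, where counting alone gives 3.19% in db/db and 5.97% in db/m. For the 5p strand it was 32.8% in db/db and 26.8% in db/m, against 6.35% and 12.4% from counting. The highest db/db library stood 2.32-fold above the lowest for the 3p strand and 2.35-fold for the 5p strand, and these extremes, replicates 4 and 3, share the title number 995475. The labels do not say what that number marks, and no number occurs in both genotypes.

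The order of the libraries was nearly the same for both strands. From low to high the db/db libraries ran replicate 3, 2, 1 and 4 for either strand. Among the db/m libraries replicate 4 was the lowest and replicate 3 the next for either strand, though replicates 1, 2 and 3 lay within 10080 to 10240 CPM for the 3p strand. In 6 of 8 libraries both strands lay on the same side of their own genotype mean of log2 CPM. The exceptions were db/db replicate 2, with 0.06 for the 3p strand and -0.01 for the 5p strand, and db/m replicate 3, with 0.14 for the 3p strand and -0.25 for the 5p strand. With 4 libraries per genotype this likeness within a genotype was not tested.

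The 3p strand was the major strand in every library. Its share of the counts of both strands was 78.8%, 80.5%, 79.9% and 79.7% in db/db replicates 1 to 4, against 79.4%, 80.7%, 85.6% and 81.6% in db/m replicates 1 to 4. The genotypes overlapped, and the db/db libraries lay close together. The mean share was 79.7% ± 0.705 in db/db and 81.8% ± 2.69 in db/m (SD, n = 4 each). The log2 ratio of 5p to 3p counts averaged -1.98 ± 0.06 in db/db and -2.18 ± 0.27 in db/m (SD, n = 4 each), a difference of 0.21, close to the pooled SD of 0.20 within genotypes. It rested largely on db/m replicate 3, whose exact 95% binomial interval for the 3p share, 83.1% to 87.9%, lay above those of all 4 db/db libraries. Without that library the difference was 0.08. Such intervals cover counting error only.

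**Figure D3:**
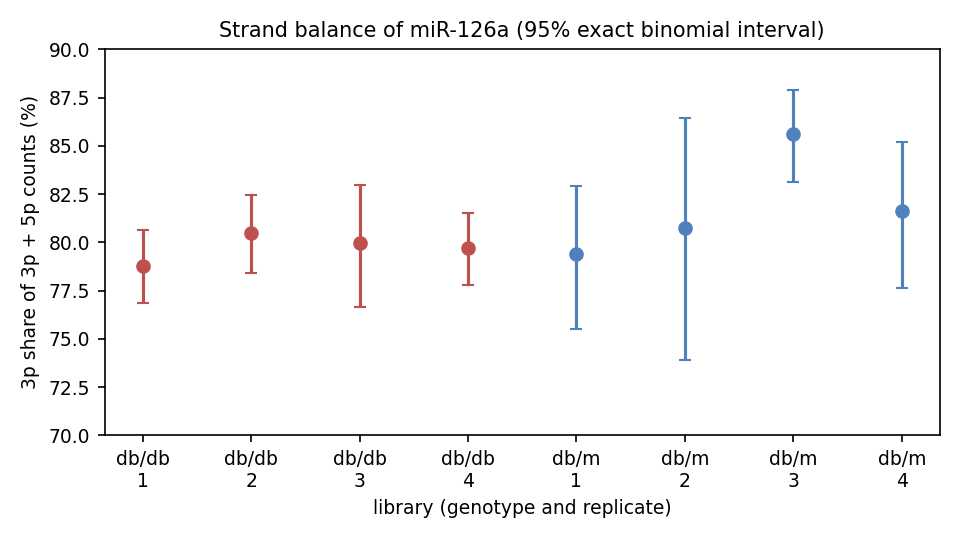
Share of miR-126a-3p in the counts of both strands (y axis, percent, from 70 to 90) in each library, db/db at the left and db/m at the right, with exact 95% binomial intervals. The libraries lie between 78.8% and 81.6% apart from db/m replicate 3 at 85.6%.

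Of the 190 miRNAs, 27 hairpins had both strands in the table and 14 had both strands tested, miR-126a among them. In the other 13 the major strand held 50.2% to 98.2% of the hairpin's counts, with a median of 71.4%, against 80.4% for miR-126a over all libraries. The 5p strand was the major strand in 8 of the 13 and the 3p strand in 5. These shares describe the libraries and were not set against a test.

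The genotype comparison was also read for both strands of those 13 hairpins, whose summed mean level ran from 491.6 to 16610 CPM, against 20880 CPM for miR-126a. Log2 fold changes had the same sign for both strands in 6 of 13, and the size of the gap between strands ran from 0.01 to 1.34, with a median of 0.58, against 0.22 for miR-126a. In 4 of the 13 the gap was smaller than in miR-126a. The gap between strands was not tested. By edgeR's quasi-likelihood test at an adjusted p of 0.05, 0 of the 13 passed on both strands, as at an unadjusted p under 0.05, and 1 passed on a single strand, where 4.86% of all tested miRNAs passed. This was miR-423, which fell by 1.39 on the log2 scale on its 5p strand (SE 0.25, adjusted p = 0.00532) and had -0.05 on its 3p strand (SE 0.27, adjusted p = 0.944). By DESeq2 and by edgeR's likelihood ratio test, 0 of the 13 passed on both strands and 2 on a single strand, miR-423-5p and miR-25-5p. Over all tested, 22.2% had an unadjusted p under 0.05, DESeq2 called 11.1% and the likelihood ratio test 5.26%. These shares count single miRNAs and not hairpins.

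Neither strand of the 3 other hairpins with the highest summed level passed the test. For let-7d, of a family that builds up in differentiated cells, log2 fold changes were -0.37 (SE 0.22) for the 3p strand and -0.29 (SE 0.15, adjusted p = 0.308 by edgeR) for the 5p strand. let-7d-5p averaged 12560 ± 1112 CPM in db/db and 15370 ± 845 CPM in db/m (SD, n = 4 each), and all 4 db/db libraries lay below the 4 db/m libraries. For miR-142a, which is abundant throughout blood cells, they were 0.21 (SE 0.24) for the 3p strand and -0.25 (SE 0.20) for the 5p strand. For miR-10a, encoded among the Hoxb genes, they were 0.34 (SE 0.34) for the 3p strand and 0.33 (SE 0.21) for the 5p strand.

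**Figure D4:**
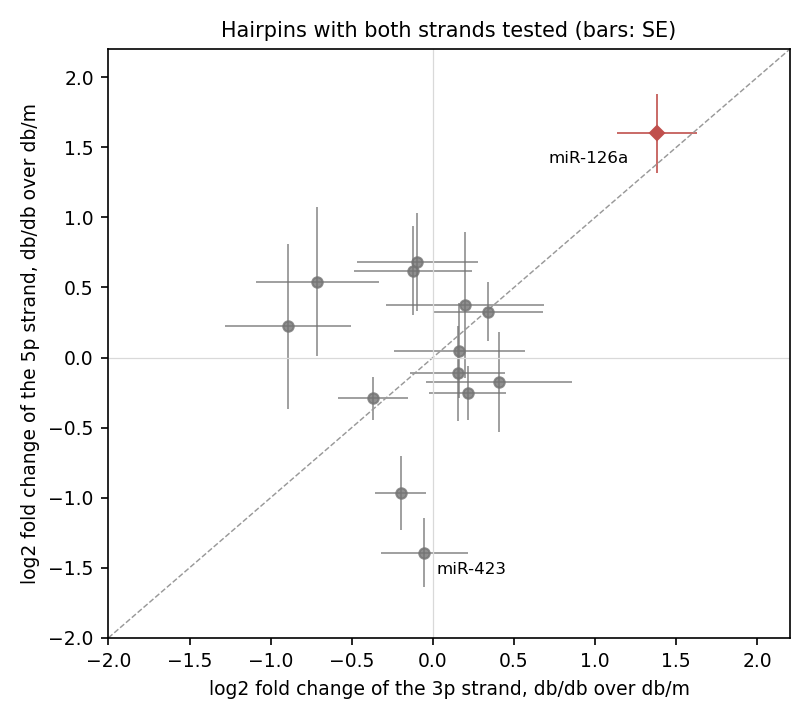
Log2 fold change of db/db over db/m for the 5p strand (y axis) against the 3p strand (x axis) of the 14 hairpins with both strands tested, with SE bars and a dashed line of equal values. The red diamond is miR-126a at 1.38 and 1.60, and miR-423 lies near 0 for its 3p strand and at -1.39 for its 5p strand.

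The profile of miR-126a over the 8 libraries was set beside those of the 142 other tested miRNAs, each centred on its own mean log2 CPM. The miR-126a profile carries the genotype difference for which the strands were chosen, so closeness to it favours miRNAs higher in db/db. Genotype calls among the nearest miRNAs are therefore not separate support. The centred profiles of the 2 strands differed by a root mean square of 0.19 log2 units. Measured from the mean profile of the strands, the nearest other miRNA was at 0.49 and the median of the 142 at 0.94. The 5 nearest were miR-196b-5p (0.49), miR-30a-5p (0.51), miR-203-3p (0.54), miR-29c-3p (0.55) and miR-26a-5p (0.55), and the sixth followed closely at 0.56. Their mature sequences are shown to set their seeds, in capitals, beside that of miR-126a-3p, and the 5 seeds differ from it and from each other.
miR-196b-5p: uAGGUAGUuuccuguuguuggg
miR-30a-5p: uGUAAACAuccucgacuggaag
miR-203-3p: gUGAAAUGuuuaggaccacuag
miR-29c-3p: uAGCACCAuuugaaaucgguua
miR-26a-5p: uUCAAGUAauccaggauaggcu

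miR-196b-5p, encoded in the Hoxa cluster, was at 9018 ± 1506 CPM in db/db and 5369 ± 868 CPM in db/m (SD, n = 4 each). It rose in db/db by 0.75 on the log2 scale (SE 0.19, adjusted p = 0.0436 by edgeR's quasi-likelihood test). miR-30a-5p, counted 24 to 63 times per db/db library and 3 to 28 times per db/m library, rose by 1.35 (SE 0.34, adjusted p = 0.0358 by the same test). Both calls were lost without db/db replicate 1 or 2 or without db/m replicate 1 or 4, at edgeR adjusted p between 0.0769 and 0.173, and that of miR-196b-5p also without db/m replicate 2 (0.066). Without a filter on low counts edgeR adjusted p was 0.0864 for miR-196b-5p and 0.0578 for miR-30a-5p.

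The other miRNAs near in profile did not pass. miR-29c-3p, of a family that targets collagens, differed by 0.87 on the log2 scale (SE 0.29, adjusted p = 0.107 by edgeR). miR-26a-5p, which targets Ezh2, had 0.46 (SE 0.16, adjusted p = 0.111 by edgeR), and its 4 db/db libraries lay above the 4 db/m libraries, as they did for miR-29c-3p. miR-203-3p, best known from skin, had 0.43 (SE 0.26, adjusted p = 0.362 by edgeR), and its genotypes overlapped. The set of 5 was not stable: 2 to 5 of them were again among the nearest when a library was left out, with 2 without db/m replicate 3, and 3 when profiles were divided by their SD. No test was made of this likeness.

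**Figure D5:**
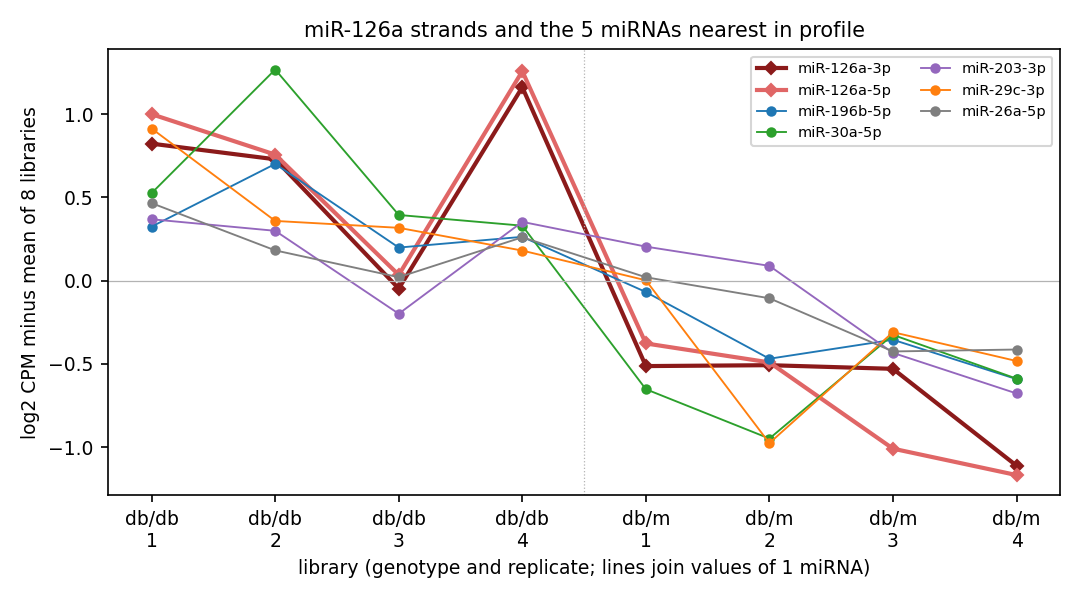
Log2 CPM minus the mean of the 8 libraries (y axis) for both miR-126a strands (thick lines, diamonds) and the 5 nearest miRNAs (thin lines) in each library, db/db at the left and db/m at the right. The strands run together and reach 1.16 and 1.26 in db/db replicate 4, where the highest of the 5 others reaches 0.35.

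Other miRNAs with known roles in blood stem cells and progenitors were mostly above 0. They were listed with results of these data known, so their comparison with all tested miRNAs is a description only. Of a list of 20 without miR-126a, 14 were tested, and 10 of these had log2 fold changes above 0, against 66 of 144 above 0 (45.8%) over all tested. The list's median was 0.23, against -0.03 for all tested miRNAs. By edgeR's quasi-likelihood test 1 of the 14 passed, miR-196b-5p, or 7.14%, against 7 of 144 (4.86%) over all tested, 4 higher (2.78%) and 3 lower (2.08%) in db/db. Shares over all tested, here and below, include both miR-126a strands, chosen for this contrast, while the lists leave them out. DESeq2 called 3 of the 14, adding miR-29a-3p as higher and miR-22-3p as lower in db/db, against 16 of 144 (11.1%) over all tested. The summed level of the list was 157000 to 187200 CPM of the library total in db/db and 115800 to 153400 in db/m, without overlap. This sum used no TMM factor. The TMM factors ran from 1.0173 to 1.0655 in db/db and from 0.9365 to 0.9955 in db/m. Dividing by them would put db/m replicate 1 above db/db replicates 2, 3 and 4, so the lack of overlap depends on the scaling. The most abundant members were miR-125a-5p, which enlarges the stem cell pool in mice when raised, with 0.03 (SE 0.18), and miR-125b-5p, with 0.40 (SE 0.17, adjusted p = 0.171 by edgeR). Neither passed.

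miRNAs that act on the PI3K-AKT pathway, the route through which miR-126 acts in stem cells, had a median log2 fold change of 0.18 over 13 tested members, 10 above 0 and 3 below. By edgeR's quasi-likelihood test 0 of 13 passed, 5 had an unadjusted p under 0.05, DESeq2 called 4 and edgeR's likelihood ratio test called 0. Over all tested, 32 of 144 (22.2%) had an unadjusted p under 0.05, DESeq2 called 11.1%, and the likelihood ratio test called 10 of 190 (5.26%). The 4 of DESeq2 were miR-26a-5p, miR-29a-3p and miR-29c-3p, higher in db/db, and miR-22-3p, lower in db/db. The summed level of the list was 86570 to 115200 CPM of the library total in db/db and 62310 to 74450 in db/m, without overlap. Both lists were chosen with results of these data known and share members, and neither sum was tested. The most abundant members were miR-26a-5p, given above, and miR-21a-5p. miR-21a-5p stood at 26400 ± 4341 CPM in db/db and 19810 ± 3122 CPM in db/m (SD, n = 4 each), which is a log2 fold change of 0.41 (SE 0.17; edgeR adjusted p = 0.171).

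Other miRNAs reported together with miR-126 in plasma of people with type 2 diabetes had a median of -0.04 over 10 tested members, 3 above 0 and 7 below. By edgeR 1 of 10 passed, where 4.86% of all tested miRNAs passed and 2.08% passed as lower. This was miR-320-3p, which fell to 1066 ± 142 CPM in db/db, against 2154 ± 341 CPM in db/m (SD, n = 4 each; log2 fold change -1.03, SE 0.23, adjusted p = 0.0198). That call was lost without db/db replicate 1, 3 or 4 or db/m replicate 1 or 4, at edgeR adjusted p between 0.0536 and 0.081. The most abundant members were miR-191-5p at -0.29 (SE 0.15, adjusted p = 0.291 by edgeR) and miR-21a-5p. Under scaling by library totals the list's median was 0.07, beside a median of all tested miRNAs that this scaling moved by 0.11, to 0.08.

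Since miR-126 is abundant in endothelium, miRNAs known from endothelial cells were measured beside it, and their part in the difference was not tested. Of 13, 9 were in the table and tested, all of which these LSK libraries held in both genotypes. By edgeR's quasi-likelihood test 0 of 9 passed, 0 had an unadjusted p under 0.05, and DESeq2 and edgeR's likelihood ratio test called 0. Over all tested the shares were 4.86%, 22.2%, 11.1% and 5.26% in the same order. Their log2 fold changes were 4 above 0 and 5 below, with a median of -0.02 that turned to 0.09 under library totals, where 7 were above 0. Relative to the median of all tested miRNAs it was 0.01 to 0.02 under each of 4 scalings. Their summed level was 33810 to 45220 CPM of the library total in db/db and 30030 to 35330 in db/m, and the ranges overlapped. In replicates 1 to 4 it was 45220, 35250, 33810 and 38260 in db/db, against 34660, 35330, 30030 and 32010 in db/m. The relation of this sum to miR-126a was not tested. The largest contributor, miR-10a-5p, also a blood progenitor miRNA, had a log2 fold change of 0.33 (SE 0.21), and miR-221-3p, which targets Kit, 0.01 (SE 0.20). The other 4 markers (miR-10b-5p, miR-31-5p, miR-100-5p and miR-218-5p) were not analysed here.

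Markers of stroma and smooth muscle were counted few times. Of 8, 2 were in the table. miR-143-3p was counted 11, 4, 3 and 17 times in db/db replicates 1 to 4, against 5, 0, 3 and 9 times in db/m replicates 1 to 4. miR-199a-3p was counted 18, 5, 9 and 39 times in db/db, against 12, 1, 13 and 17 times in db/m, and its log2 fold change was 0.64 (SE 0.58; edgeR adjusted p = 0.61). Their summed level was highest in db/db replicate 4, the library with the most miR-126a, at 1249 CPM of the library total. The summed level ran from 180 to 1249 in db/db and from 75.3 to 476 in db/m. Across the other libraries the order was mixed. In db/db replicate 1, next below replicate 4 for both miR-126a strands, the sum was 535, above every db/m library. The highest db/m sum, 476, was in replicate 4, the db/m library with the least miR-126a. db/db replicate 3, with the least miR-126a of db/db, had 332, above replicate 2 at 180. No relation of this sum to miR-126a was tested. Without db/db replicate 4 the log2 fold changes were 1.24 for miR-126a-3p and 1.46 for miR-126a-5p.

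Mature blood cells, platelets included, were followed by 4 further lists, and their part in the result was not tested. By edgeR's quasi-likelihood test 0 passed in any of them, and DESeq2 and edgeR's likelihood ratio test called 0. Over all tested the shares were 4.86%, 11.1% and 5.26% in the same order. With 5, 4, 4 and 1 tested members, few calls could occur at such shares. Of 5 platelet miRNAs, a cell rich in miR-126 itself, 2 had an unadjusted p under 0.05, against 22.2% over all tested. These were miR-21a-5p and miR-150-5p, with log2 fold changes of opposite sign, 0.41 and -0.63 (SE 0.17 and 0.27). All 5 platelet miRNAs are also in the plasma list above. Of them miR-223-3p is in the myeloid list too, miR-150-5p in the lymphoid list and miR-24-3p in the endothelial list. The lists are therefore not separate measures. The summed platelet level was 67560 to 82720 CPM of the library total in db/db and 66800 to 77380 in db/m. For 4 of 5 myeloid miRNAs it was 30320 to 43790 in db/db and 32560 to 41810 in db/m, and 0 had an unadjusted p under 0.05. For 4 lymphoid miRNAs it was 16790 to 27830 in db/db and 20940 to 23470 in db/m, and 1 had an unadjusted p under 0.05. Of 5 erythroid miRNAs 1 was tested, miR-486a-5p, at 1137 to 5893 in db/db and 2097 to 3238 in db/m, with an unadjusted p above 0.05. The ranges of the genotypes overlapped in each of the 4 lists.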

How the data were processed

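Small RNA libraries (QIAseq miRNA) were made from Trizol-extracted RNA of flow-sorted LSK cells, per the labels' protocols. The authors deposited raw counts per mature miRNA, log2 CPM values and a log2 fold change per the file headers, with a p-value, a false discovery rate and a signed fold change, which is taken as a score. The RNA integrity number of the deposited project sheet is taken as a score too. Tools and builds listed per the submitters' processing notes were edgeR 3.41.9 and mm10. Which aligner was run, and how molecular identifiers and reads matching several miRNAs were handled, was not given in the sources used here. Columns were joined to samples by the number in the titles, and 0 columns were left without a sample. Replicates of a genotype differed by more than sampling noise in every pair (chi-square per degree of freedom of at least 5.34).

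The count test was edgeR 4.0.16 (R 4.3.3) after filterByExpr (minimum count 10, minimum total 15) and TMM scaling, by glmQLFTest on a robust glmQLFit with 6 residual degrees of freedom, with Benjamini-Hochberg adjustment over 144 miRNAs and a threshold of 0.05. The SE is the log2 fold change over the root of F. The script was checked on simulated counts. edgeR's likelihood ratio test on all 190 matched the authors' log2 fold changes to 8.7e-15. Log2 CPM used a prior count of 2. Shares have exact Clopper-Pearson intervals. Hairpins were folded with RNAfold 2.7.2. Alternatives were RLE and total scaling, the 5 most abundant miRNAs left out of library sizes, no filter, DESeq2 1.42.0, the likelihood ratio test, libraries of 1 title number summed, each library left out, and the suffix of the title number as a block, added after the data were seen.

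The strands and the lists were chosen with earlier results of these data known. Besides both strands, the text names the 5 miRNAs nearest in profile, list members that passed or were among the 2 most abundant, and hairpins with both strands tested that passed or had the 3 highest levels. Stroma markers below the filter, the other members called by DESeq2, miR-150-5p and miR-423, which passed on 1 strand, were named after their values were seen.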

Additional observations from a re-analysis of the deposited data

Results flagged for a closer look

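The level of miR-126a-3p in db/m replicate 4 stood far from the other 3 db/m libraries, at 6724 CPM against 10080 to 10240 CPM, and likewise as a share of counts, at 0.642% against 0.950% to 1.01%. The gap exceeded Dixon's 95% critical value of 0.829 for 4 samples. Of 24 groups of 4 values examined only these were so marked, both of them the same measurement on different scales, and chance marks about 1 group in 20. Without this library the log2 fold change was 1.25 for miR-126a-3p and 1.46 for miR-126a-5p.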

How the results depend on the processing

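Both strands of miR-126a stayed higher in db/db in all 16 alternatives each. Leaving out a library in turn gave log2 fold changes of 1.24 to 1.62 for miR-126a-3p and 1.44 to 1.85 for miR-126a-5p, and the other 8 alternatives gave 1.31 to 1.54 and 1.42 to 1.80. The difference in the log2 ratio of 5p to 3p counts ran from 0.08 to 0.29 without a library in turn and was 0.20 and 0.30 in the other alternatives. The number of miRNAs past the threshold over all tested was 7 as reported, 16 by DESeq2 and 15 with libraries of 1 title number summed, and 3 to 18 without a library in turn. It was 3 without db/db replicate 1, db/m replicate 1 or db/m replicate 4, and 18 without db/m replicate 3. The cause was not tested. The alternatives for the named miRNAs other than miR-126a were added after the data were seen. The calls of miR-196b-5p, miR-30a-5p and miR-320-3p were lost in 7, 6 and 5 of 16 alternatives without a change of sign, and that of miR-423-5p in none. No title number occurs in both genotypes, and the suffix after it recurs within a genotype, so it pairs no libraries one to one. With that suffix as a replicate block, added after the data were seen, 11 miRNAs passed, and the log2 fold changes were 1.33 for miR-126a-3p and 1.42 for miR-126a-5p. The block leaves db/m replicate 3 alone, so that it adds nothing to the contrast. In db/m replicate 2, the shallowest library, miR-126a-5p had 32 counts.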
